A study of Mus musculus with 2 samples.

Results

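Matrix metalloproteinases (MMPs) are zinc-dependent endopeptidases that cut collagen, elastin and other matrix proteins and also process cytokines and their receptors. Most are secreted as inactive proenzymes, some are held in the membrane, and the tissue inhibitors of metalloproteinases (TIMPs) bind the active enzymes and block them. Myeloid cells of a tumour are a known source of MMPs: neutrophils store MMP8, MMP9 and MMP25 in their granules and membranes, macrophages make MMP12, and MMP13, MMP14 and TIMP3 are made by stromal cells as well as by macrophages. The 10 genes described here are the collagenases Mmp8 and Mmp13, the gelatinase Mmp9, the elastase Mmp12, the secreted Mmp19, the membrane-bound Mmp14 and Mmp25, and the inhibitors Timp1, Timp2 and Timp3. They were chosen by name with earlier results of these data known, and other MMP genes and Timp4 are described further below. Every non-control probe on the arrays that the design assigns to a RefSeq transcript of 1 of these genes was used. This gave 12 probes among 27223 probes of 20653 named genes.

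The RNA came from monocytic myeloid-derived suppressor cells (M-MDSCs), immature myeloid cells with suppressive activity, taken from 4T1 tumours. 4T1 is a mouse mammary carcinoma line, and 1000000 cells had been injected under the skin of female mice, fasted for 1 day before, whose strain the labels spell BABL/c. For 16 days the mice of the normal-salt diet (NSD) group had chow with 0.4% NaCl and tap water, and those of the high-salt diet (HSD) group had chow with 4% NaCl and drinking water with 1% NaCl. The labels give no age, and all mice of both groups carried tumours, so no tumour-free sample enters. The cells were taken from the tumours with a commercial isolation kit for MDSCs, equal numbers were mixed within a diet group, and the mixture gave 1 single-colour Agilent array per diet. No spread between mice can be computed, no test of the diet was possible, and every value below describes these 2 pools.

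The software called 28330 of 39413 probes well above background for NSD and 28534 for HSD, and no spot was saturated. The 75th percentile of all probes lay at 252 intensity units for NSD and at 233 for HSD. Signals below are given in these intensity units before scaling. Log2 fold changes are HSD minus NSD, after each array's 75th percentile was subtracted on the log2 scale, and their median over the 15209 genes measured on both arrays was 0.044. Of the genes that define the label, Itgam, which encodes CD11b, had signals of 31564 with NSD and 31043 with HSD by its brightest probe. Ly6c1, which encodes a Ly-6C antigen, had 51811 and 48478 by its brighter probe and 4649 and 3210 (log2 fold change −0.42) by the other. The other Itgam probes had log2 fold changes of 0.07 and 0.47. Markers of neutrophils were bright too, with signals of 57914 and 56478 for S100a8 and of 51766 and 51993 for Ltf. No probe could be matched to Ly6g.

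The 4 genes that were lower with HSD by more than 1.5-fold were Mmp13, Mmp12, Mmp14 and Timp3. Their RefSeq promoters, from 250 bases before to 50 bases after an annotated transcription start in assembly GRCm38.p6, are shown because these members had lower values together. Mmp12 has a pair of annotated starts, and the downstream one is shown. All are written 5′ to 3′ on the + strand, the strand of these genes. Capitals mark every match, on either strand, to TGACTCA (the AP-1 site for which several MMP promoters are known), AGGAAG (a core of ETS and PEA3 sites) or TATAAA (the TATA box).
Mmp13, chr9:7272264-7272563: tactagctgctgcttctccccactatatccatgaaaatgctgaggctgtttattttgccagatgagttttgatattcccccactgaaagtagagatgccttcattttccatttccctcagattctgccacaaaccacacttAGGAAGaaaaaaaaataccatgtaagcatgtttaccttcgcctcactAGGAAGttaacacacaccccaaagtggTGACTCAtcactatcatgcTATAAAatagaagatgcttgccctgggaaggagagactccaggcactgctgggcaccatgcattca
Mmp12, chr9:7347124-7347423: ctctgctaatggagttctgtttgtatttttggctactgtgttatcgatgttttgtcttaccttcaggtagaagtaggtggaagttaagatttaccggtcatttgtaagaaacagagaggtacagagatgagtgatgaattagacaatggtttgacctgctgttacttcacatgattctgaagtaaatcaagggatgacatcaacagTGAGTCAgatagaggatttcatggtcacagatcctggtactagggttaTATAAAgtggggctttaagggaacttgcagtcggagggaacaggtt
Mmp14, chr14:54431348-54431647: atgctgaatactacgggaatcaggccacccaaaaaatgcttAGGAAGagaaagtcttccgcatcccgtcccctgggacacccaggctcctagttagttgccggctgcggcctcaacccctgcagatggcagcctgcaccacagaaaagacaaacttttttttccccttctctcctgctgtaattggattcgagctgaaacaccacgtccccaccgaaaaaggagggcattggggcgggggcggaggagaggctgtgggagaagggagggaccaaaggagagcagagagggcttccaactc
Timp3, chr10:86300162-86300461: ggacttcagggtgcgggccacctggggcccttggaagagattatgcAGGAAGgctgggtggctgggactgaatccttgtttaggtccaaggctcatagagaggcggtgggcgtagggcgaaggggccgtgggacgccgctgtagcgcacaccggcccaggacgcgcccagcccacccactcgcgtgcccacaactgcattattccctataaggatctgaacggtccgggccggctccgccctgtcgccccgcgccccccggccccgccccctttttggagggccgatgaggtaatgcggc

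In the Mmp13 promoter the TGACTCA match began 35 bases before the start, with AGGAAG at 109 and 62 bases and TATAAA at 16 bases before it. In the Mmp12 promoter the match to TGACTCA, read on the other strand as TGAGTCA, began 44 bases before the start, TATAAA lay just downstream of the start, and no AGGAAG was found. The upstream start of Mmp12, not shown, had an AGGAAG match on the other strand, 87 bases before it, so that each of the 4 genes held AGGAAG in at least 1 of its windows. Mmp14 and Timp3 had a single AGGAAG each, at 209 and 204 bases before the start, and neither of the other motifs. The 4 lower genes therefore did not share the TGACTCA or TATAAA letters in these windows. Among all 32851 promoters of this length, 5.2% held TGACTCA, 35.4% AGGAAG and 13.6% TATAAA. Of the 9 promoters found for 8 of the members, 2 held TGACTCA, 7 AGGAAG and 3 TATAAA. Mmp9 and Mmp19 had no entry. These are matches of letters in the C57BL/6J reference and were not tied to binding of any factor.

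Of the 10 genes, 9 were measured well above background on both arrays. Of these, 4 were lower with HSD by at least 1.5-fold and 0 were higher, while 10.3% of the 16312 genes with a usable value were lower and 9.86% higher by this measure. At 2-fold, 3 of them, Mmp13, Mmp14 and Timp3, were lower and 0 were higher, against 4.17% and 2.62% of all genes. The 9 genes had a median log2 fold change of −0.25, with 6 below and 3 above 0. These counts depend on which genes of the family were chosen. The 6 usable genes among the other MMPs and Timp4 were all above 0, 3 of them by at least 1.5-fold. Below 1.5-fold lay the enzymes that neutrophils store, Mmp8, Mmp9 and Mmp25, together with Mmp19 and Timp2. With cells pooled in bulk, fewer cells that make a transcript and less of it per cell cannot be told apart. The signals of all probes are set side by side in the plot of the probes by array.

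**Figure D1:**
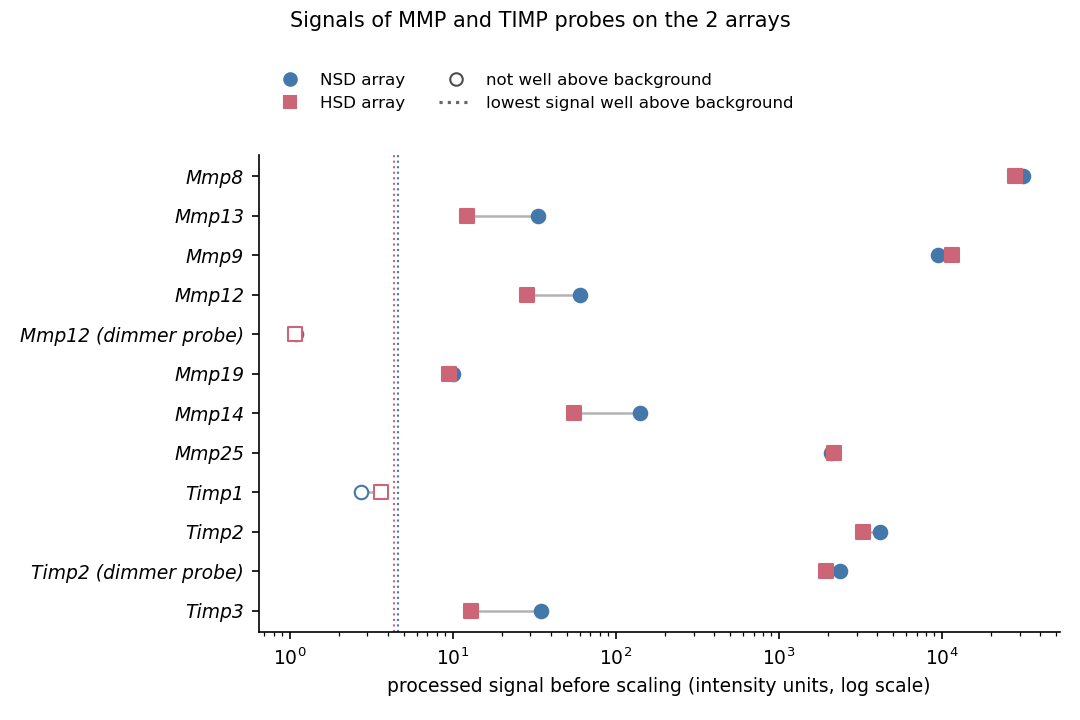
Processed signal (intensity units, log scale) of the 12 probes of the MMP and TIMP genes on the NSD array (circles) and the HSD array (squares); open symbols are not well above background, and dotted lines mark the lowest signal well above background on each array. Mmp13, Mmp12, Mmp14 and Timp3 sit to the left on the HSD array, the 2 signals of Mmp8, Mmp9, Mmp19, Mmp25 and Timp2 lie close together, and Timp1 and the dimmer Mmp12 probe are under the lines; positions of different probes are not comparable as levels.

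Among the collagenases, Mmp13, which cuts fibrillar collagen and gelatin, gave a signal of 33.5 with NSD and of 12.3 with HSD. It was 2.52-fold lower with HSD after scaling, a log2 fold change of −1.33, and 1.81% of the genes measured on both arrays had a lower value. The noise of a spot could be read from 399 probes printed in several spots per array. At signals within 1.5-fold of those of Mmp13, 95% of the pairs of spots of the same probe on the HSD array differed by less than 0.69 on the log2 scale (1375 pairs), so the difference of Mmp13 was larger than this spread, a spread that reflects repeat spots and not the mice. Mmp8, the collagenase of neutrophil granules, had signals of 31624 and 28048. Its log2 fold change of −0.06 was within the corresponding spot difference of 0.23, so the diets did not differ beyond the noise of a spot for Mmp8.

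Mmp9, the gelatinase that cuts denatured collagen and basement membrane collagen, was printed in 10 spots per array. On the NSD array their signals ran from 6853 through a median of 9850 to 10124, and on the HSD array from 7994 through 12292 to 12684. The HSD spot was brighter than the NSD spot at each of the 10 positions, and 9 HSD spots lay above every NSD spot. The dimmest spot lay at the same position on both arrays, and through it the ranges of the arrays overlapped. By position the log2 fold change ran from 0.24 to 0.48 with an SD of 0.072 (n = 10 spots of 1 probe, which are repeat measurements of the same RNA). The mean over spots was 0.39, a fold change of 1.31, which is below 1.5-fold. The spot difference at such signals, 0.57, describes pairs of single spots and cannot be used to judge a mean over 10 matched positions. The log2 fold changes at the 10 positions were all positive, so for this probe the arrays differed beyond the spread of matched spots. That spread reflects repeat spots and not the mice. Log2 fold changes above that of Mmp9 were found for 17.9% of the genes measured on both arrays.

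**Figure D2:**
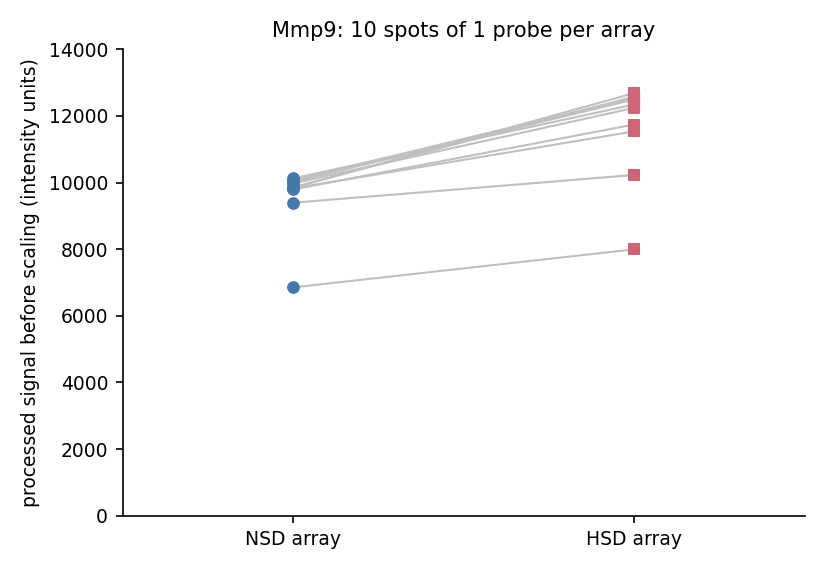
Processed signal (intensity units, linear axis from 0) of the 10 spots of the Mmp9 probe on the NSD array (circles) and the HSD array (squares), with lines joining spots at the same position. Every line goes up from NSD to HSD, and the lowest pair, 6853 and 7994, stands apart from the other 9 on both arrays.

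Mmp12, the metalloelastase of macrophages, gave 60.5 with NSD and 28.5 with HSD by its brighter probe. It was 1.96-fold lower with HSD (log2 fold change −0.97), against a spot difference of 0.52 at such signals. Its other probe had signals of 1.09 and 1.08 and failed the background call on both arrays. Mmp12 therefore rests on 1 spot per array, as do Mmp13, Mmp14 and Timp3. Of the member probes, only that of Mmp9 was printed in more spots. Mmp19, a secreted enzyme with broad substrates, had signals of 10.1 and 9.55, not far above the lowest signals called well above background, 4.61 for NSD and 4.39 for HSD. Its log2 fold change of 0.04 was far within the spot difference of 0.78, and it turned to between −0.08 and −0.004 under quantile normalization, cyclic loess, scaling on detected probes and in the authors' values.

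Of the membrane-bound members, Mmp14 was lower with HSD and Mmp25 did not differ beyond the noise of a spot. Mmp14, the membrane-type collagenase that also activates proMMP2 on the cell surface, gave a signal of 141 with NSD and of 55.7 with HSD. It was 2.33-fold lower with HSD (log2 fold change −1.22), several times the spot difference of 0.31 at such signals, and it was the only 1 of the 4 lower genes that stayed past 1.5-fold under every setting tried. Mmp25, the leukocyte enzyme anchored in the membrane by a lipid, had signals of 2087 and 2187. Its log2 fold change was 0.18, within the spot difference of 0.23.

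Among the inhibitors, Timp3, which is bound to the matrix and also blocks ADAM17, gave a signal of 34.7 with NSD and of 13.0 with HSD. It was 2.47-fold lower with HSD (log2 fold change −1.30), against a spot difference of 0.66. Timp2, which blocks most MMPs and takes part in the activation of proMMP2 by MMP14, was measured by 2 probes with signals of 4197 and 3264 and of 2371 and 1947. Both were slightly lower with HSD, with log2 fold changes of −0.25 and −0.17 against spot differences of 0.22 and 0.23, and neither reached 1.5-fold. Timp1, which binds proMMP9, had signals of 2.75 and 3.64. Its only matched probe failed the background call on both arrays, so no fold change is given, and a transcript that this probe does not reach would not be seen.

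**Figure D3:**
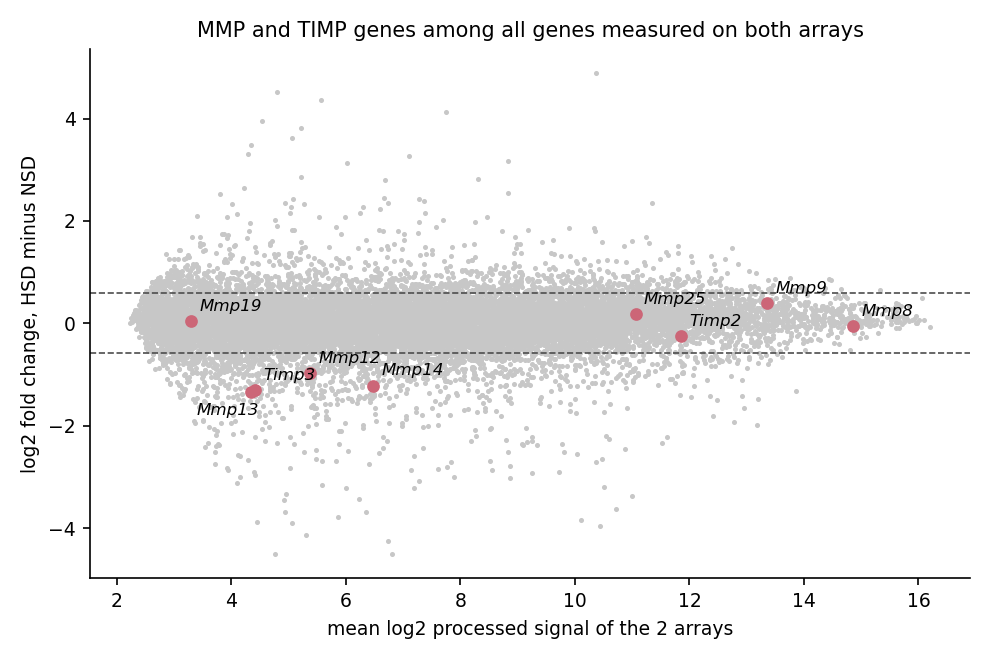
Log2 fold change (HSD minus NSD, 75th percentile scaling) against the mean log2 signal of both arrays for the 15209 genes measured on both (grey points), with the 9 measured MMP and TIMP genes in red and dashed lines at 1.5-fold. Mmp13, Timp3, Mmp14 and Mmp12 lie below the lower line at low to middle signals, and Mmp8, Mmp9, Mmp25 and Timp2 lie between the lines at high signals.

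Differences between the log2 fold changes of 2 genes do not depend on a constant scaling of the arrays, and they show unequal change within the family. Mmp9 relative to Mmp14 was 3.06-fold higher with HSD than with NSD, a difference of 1.61 on the log2 scale. Mmp25 relative to Mmp14 was 2.65-fold higher (1.40), and Mmp8 relative to Mmp13 was 2.42-fold higher (1.28). Against its partner Timp2, Mmp14 was 1.96-fold lower (−0.97), whereas Mmp9 was 1.56-fold higher (0.64). Mmp13 and Timp3 kept nearly the same ratio, with a difference of −0.03. With normexp correction and an offset of 50, which adds a constant to dim signals, the difference of Mmp9 to Mmp14 was 1.04, that of Mmp25 to Mmp14 was 0.77, that of Mmp8 to Mmp13 was 0.26 and that of Mmp14 to Timp2 was −0.40, while that of Mmp9 to Timp2 stayed at 0.64.

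How many of these genes passed 1.5-fold moved with the background correction. Under all scalings between the arrays and in the authors' values, Mmp13, Mmp12, Mmp14 and Timp3 were at least 1.5-fold lower, with log2 fold changes from −1.39 to −1.31 for Mmp13, −1.01 to −0.95 for Mmp12, −1.26 to −1.22 for Mmp14 and −1.35 to −1.28 for Timp3. Of all genes, 10.1% were lower by this measure with scaling on the median, 11.3% with quantile normalization, 11.5% with scaling on detected probes, 12.2% with cyclic loess, 11% in the authors' values and 10.3% with outlier spots kept. Higher by this measure were 10%, 8.46%, 8.54%, 7.63%, 8.57% and 9.83% in the same order, and none of the members. With normexp correction and an offset of 50, only Mmp14 did, at −0.67, and Mmp12, Timp3 and Mmp13 had −0.41, −0.36 and −0.30. This setting called 4.07% of all genes lower and 3.85% higher. With normexp and no offset, a setting chosen after seeing the data, all 4 were again past 1.5-fold, at log2 fold changes between −1.07 and −0.98, and this setting called 9.41% of all genes lower and 8.01% higher.

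**Figure D4:**
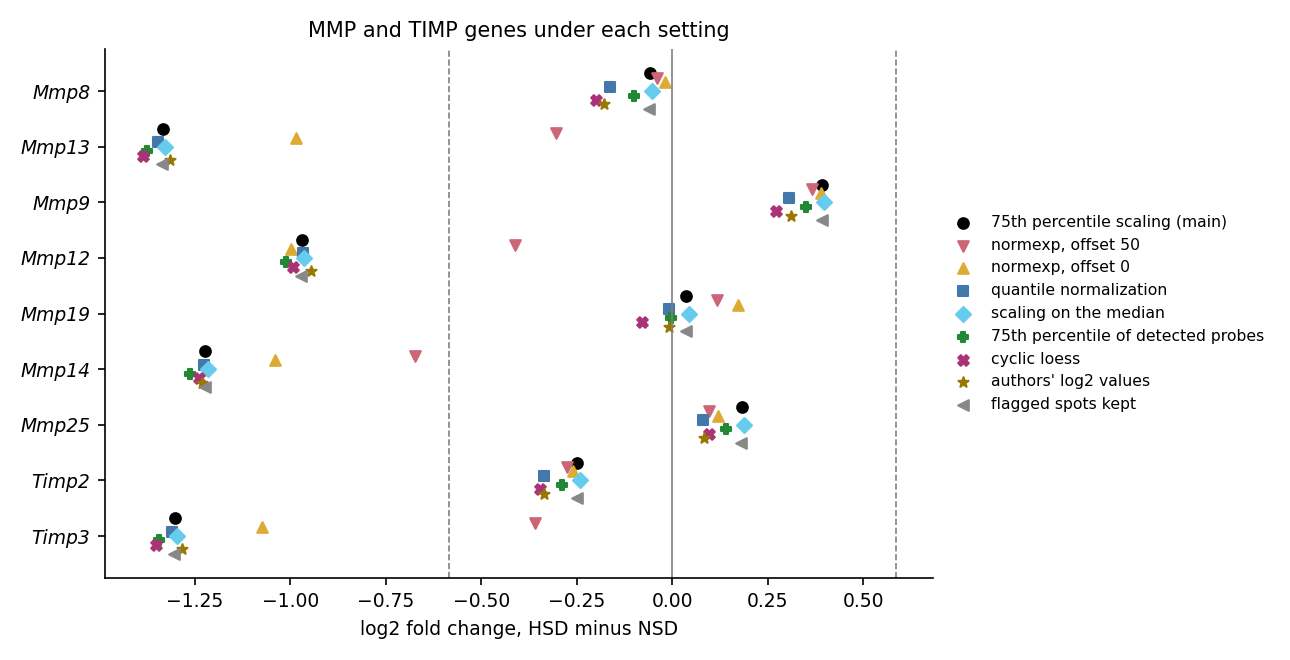
Log2 fold change (HSD minus NSD) of the 9 measured MMP and TIMP genes under the 9 settings, 1 symbol per setting, with dashed lines at 1.5-fold and a solid line at 0. Symbols of a gene lie close together apart mainly from the normexp settings. With an offset of 50, those of Mmp13, Mmp12, Mmp14 and Timp3 move towards 0, and Mmp14 alone stays past the line. With no offset, those of Mmp13, Timp3 and Mmp14 move less far towards 0, to −0.98, −1.07 and −1.04, and that of Mmp19 lies at 0.17. Timp1 is not shown.

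The other MMP genes and Timp4 were mostly dim. Of 16 such genes with a probe, 6 had a usable value, of which 3 were higher with HSD by at least 1.5-fold and 0 were lower. Mmp7, or matrilysin, had signals of 8.23 and 13.4 (log2 fold change 0.82), Mmp11, or stromelysin-3, had 13.6 and 21.0 (0.74) by its brighter probe and 7.26 and 8.26 (0.30) by the other, and Mmp23 was at least 1.94-fold higher, with 8.26 for HSD and a dim NSD signal that was not well above background. All 3 had signals of at most 21.0, and none was past 1.5-fold with normexp correction and an offset of 50. The gelatinase Mmp2 and the stromelysins Mmp3 and Mmp10 failed the background call on both arrays. Timp4 had signals of 19.2 and 21.0 (log2 fold change 0.24). The other usable values were those of Mmp17, with 115 and 132 (0.31), and of Mmp24, with 50.7 and 63.7 (0.44) by its brighter probe. On chromosome 9, where RefSeq lists 10 MMP genes in the order Mmp13, Mmp12, Mmp1b, Mmp3, Mmp1a, Mmp10, Mmp8, Mmp27, Mmp20 and Mmp7, the 4 genes measured on both arrays had log2 fold changes of −1.33, −0.97, −0.06 and 0.82 in that order. Mmp13 and Mmp12, the only adjacent genes that were both measured, were both lower, and the value of Mmp8 was within its spot difference.

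Of the genes that regulate, activate or clear MMPs, 13 had a usable value, of which 3 were at least 1.5-fold lower and 0 higher with HSD. Thbs1, which encodes the matrix protein thrombospondin-1, gave 600.2 with NSD and 79.7 with HSD (log2 fold change −2.80). Ctsg, the serine protease cathepsin G, had 1733 and 807 (−0.99), and Lrp1, the endocytic receptor that takes up MMPs with their inhibitors, had 248 and 127 (−0.85). These 3 were past 1.5-fold with the normexp offset of 50 as well. Reck, the membrane-anchored MMP inhibitor, had 2 probes with log2 fold changes of 0.43 and 0.24. Bsg, the inducer of MMPs known as EMMPRIN, had signals of 147 and 108 (−0.34), and Cd44, which holds MMP9 at the cell surface, had 8014 and 9126 by its brightest probe (0.30), with −0.10, 0.49 and 0.56 by the others.

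Of the plasminogen activation genes, 9 had a usable value, of which 2 were at least 1.5-fold higher and 0 lower. Serpinf2, the inhibitor of plasmin, had signals of 18.1 and 41.2 (log2 fold change 1.30), and Serpine2, a protease inhibitor, had 12.9 and 21.6 (0.86). Neither was past 1.5-fold with the normexp offset of 50. The activator Plau, or urokinase, had 267 and 367, a fold change of 1.49, and its receptor Plaur had 5752 and 4691 (log2 fold change −0.18). Plau passed 1.5-fold under some of the scalings, with log2 fold changes up to 0.60. Among the related ADAM and ADAMTS proteases, 11 had a usable value, with Adamts10 higher (8.55 and 22.9, log2 fold change 1.54) and Adam12 lower (41.9 and 22.9, −0.76) by at least 1.5-fold, neither of them with the normexp offset of 50.

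Markers of cell types that make MMPs differed between the arrays in part. Of 10 usable macrophage markers, 6 were at least 1.5-fold lower with HSD and 0 higher. Over the 11 with a probe, the summed signal of the list was 26691 for NSD and 17168 for HSD. This sum was set mostly by a few bright genes, Csf1r, Apoe and Adgre1, and little by Mrc1, Fcgr1 and Mertk. Csf1r, the brightest, had 11343 and 8112 (log2 fold change −0.37), with −0.40 and −0.10 by its other probes. Marco had 164 and 148 (−0.03). Mrc1, the mannose receptor, had 134 and 5.49 (log2 fold change −4.50), Fcgr1 had 305 and 21.9 (−3.68), Mertk 95.9 and 15.4 (−2.52), and Msr1 742 and 210.4 (−1.70). Apoe had 7119 and 4337 (−0.60), and C1qa was at least 2.56-fold lower, while C1qb, which encodes another subunit of the same complement protein, had 50.4 and 58.4 (0.33). C1qc, the gene of a further subunit, was not on the list and had a log2 fold change of −3.11. With the normexp offset of 50, 5 of the markers were past 1.5-fold, and C1qa was not, at −0.07. By its brighter probe Adgre1, which encodes F4/80, had 6723 and 4252 (−0.55), short of 1.5-fold under the 75th percentile scaling and past it under some others. Its other probe had 1540 and 1200 (−0.25). Cd163 failed the background call on both arrays, and Cd68 was not matched. Mmp12, Mmp13, Mmp14 and Timp3 were thus lower on the array on which most of these markers were lower. Their part in the lower MMP and TIMP values was not tested.

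Fibroblast markers were mixed. Of 8 usable genes, 3 were at least 1.5-fold lower and 2 higher, and the summed signal of the list, 1598 and 6010, was set by Acta2. Fap had 58.7 and 21.4 (log2 fold change −1.34), Col3a1 had 11.1 and 4.81 (−1.09), Dcn 9.82 and 5.20 (−0.80), Pdgfrb 26.1 and 36.4 (0.59), and Acta2, the smooth muscle actin, had 1206 and 5660 (2.34). With the normexp offset of 50, 0 were past 1.5-fold lower and 1, Acta2, was higher. Col1a1 had 89.1 and 77.2 (−0.09), and Pdgfra and Lum failed the background call on both arrays. Their part in the values of Mmp13, Mmp14 and Timp3 was not tested. Of the 11 neutrophil markers with a probe, 1 was at least 1.5-fold lower, the myeloperoxidase gene Mpo (3536 and 1723, −0.92), and 0 were higher, with summed signals of 429615 and 431144. These sums were taken before scaling and were set mostly by the brightest probes, such as those of S100a8 and Ltf. After scaling, 9 of the 11 were above 0 and 2 below. The part of neutrophils in the values of Mmp8, Mmp9 and Mmp25 was not tested.

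Of the 9 monocyte markers with a probe, 3 were at least 1.5-fold higher, Cd14 (log2 fold change 0.82), Cx3cr1 (0.78) and Vcan (0.67), and 1 was lower, Ccr2, with signals of 259 and 139 (−0.78). Their summed signals were 109092 and 101487. Of 9 epithelial markers, which could trace carcinoma cells, 4 were at least 1.5-fold higher and 0 lower, namely Cldn3, Krt18, Epcam and Krt8, with signals of at most 25.0, and the sums of the list were 191 and 187. Cldn3 was dim with NSD, so its value is a lower bound. By sign, 7 were above 0 and 2 below, Krt5 and Cdh1, the brightest of the list. Krt5 had 46.6 and 29.5 (log2 fold change −0.54) and Cdh1 had 45.0 and 30.8 (−0.43). Epcam had 14.5 and 21.8 (0.70), and 0 of the 9 were past 1.5-fold with the normexp offset of 50. Of 7 usable dendritic cell markers, 2 were higher, Itgax and Clec9a, and 1 lower, Cd209a, with sums of 2129 and 2066 over 8 genes. Endothelial markers had 0 of 5 usable genes past 1.5-fold by their brightest probes, with sums of 268 and 292 and Pecam1 at 90.8 and 99.1. A dimmer probe of Kdr, with 124 and 20.4, had a log2 fold change of −2.49. Of 7 usable lymphocyte markers, 1 was lower, Cd3e (115 and 49.8, −1.09), and the sums were 3050 and 3438. Vcan, Clec9a and Cd209a were not past 1.5-fold with the normexp offset of 50. The part of these cell types in the MMP and TIMP values was not tested.

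**Figure D5:**
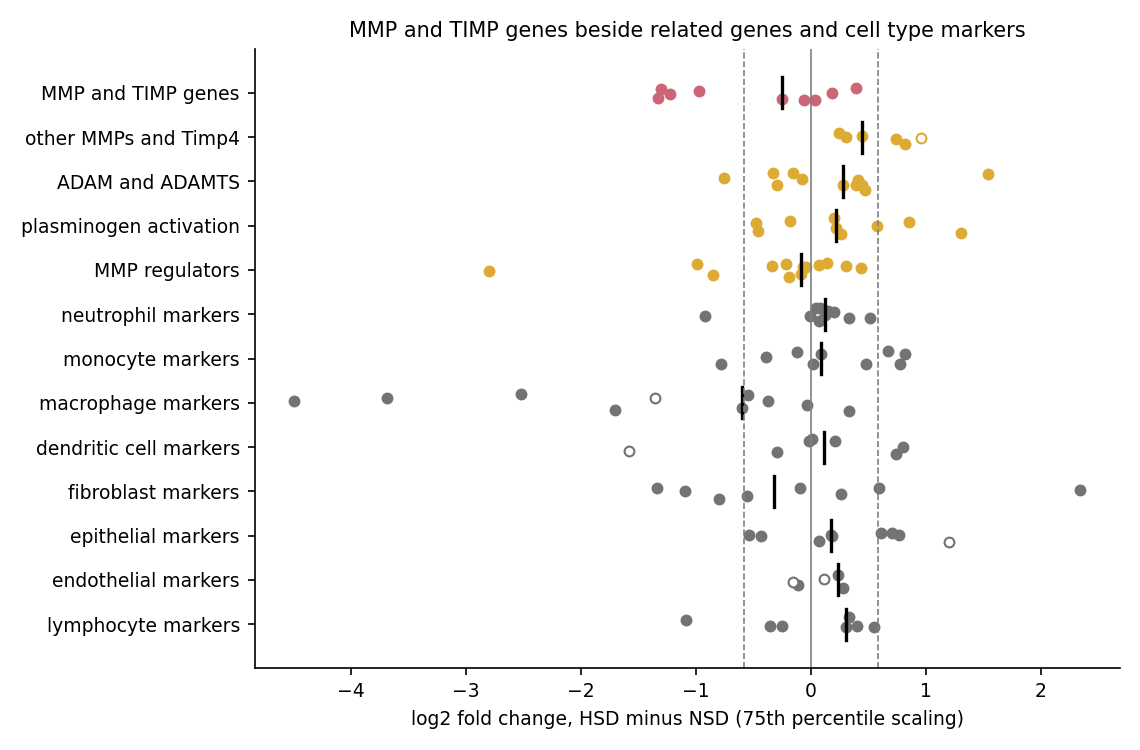
Log2 fold change (HSD minus NSD, 75th percentile scaling) of each usable gene in the MMP and TIMP set (red), the related protease lists (yellow) and the cell type marker lists (grey); open points are lower bounds, black ticks are medians over genes measured on both arrays, and dashed lines mark 1.5-fold. The 4 lower MMP and TIMP genes lie left of the line, as do 6 macrophage markers, while neutrophil markers lie between the lines except for Mpo.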

How the data were processed

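The authors deposited, for each of the 2 arrays, the scanner output of Agilent Feature Extraction 11.0.1.1, whose processed signal is an intensity corrected for background and spatial trends and not normalized between arrays. Deposited median intensities of spot and surrounding background served only for limma's normexp correction. The authors' deposited table of log2 values normalized with GeneSpring was used as an alternative; its method is not given in the sources used here.

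Control spots and outlier spots (162 on the NSD array, 179 on the HSD array) were left out, log2 signals were averaged over the spots of a probe, and the 75th percentile of all probes was subtracted. A probe was called well above background when at least 50% of its spots were. Where a probe was dim on 1 array, only a lower bound was given, against the higher of its own signal and the lowest signal well above background. Transcript identifiers were matched without versions to RefSeq GRCm38.p6 (69.1% of probes); coordinates in the design files belong to an older build and are not given. The brightest probe stood for a gene.

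All 10 members are named with every probe. Of the lists, genes past 1.5-fold were named, up to 4 per list and direction, with some regulators and defining markers fixed by name. A few further genes of the lists were named after their values had been seen. Members and lists were chosen with earlier results of these data known. Each diet has 1 array, so no test was run, and this number limits the precision. The calling step was run on simulated data with the same noise at all signals and changes only in probes well above background. That run does not cover the larger noise of dim probes or the lower bounds. Python 3.11.15, numpy 2.4.6, pandas 2.3.3, matplotlib 3.10.9, R 4.3.3 and limma 3.58.1 were used.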

Additional observations from a re-analysis of the deposited data

How the results depend on the processing

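The count of 4 genes at least 1.5-fold lower with HSD was 1 with normexp correction and an offset of 50. That offset adds a constant to signals of 12 to 141 intensity units and by construction draws their ratio towards 1. The count was 4 under quantile normalization, cyclic loess, scaling on the median or on detected probes, in the authors' values, with outlier spots kept, with either filter on dim probes, with a gene's probes combined by their median and with normexp without an offset (added after seeing the data), and 3 at a 2-fold threshold, which Mmp12 missed. The count of genes at least 1.5-fold higher was 0 throughout. The median over the measured genes lay between −0.35 and −0.15, the latter without a filter on dim probes, when Timp1 enters as well. Of 80 values of single probes under the alternatives, 69 moved by at most 0.116 on the log2 scale, the spread of a difference between 2 spots, and no value past 1.5-fold changed its sign. No paired analysis was possible because each group has a single array. The noise of repeat spots was larger for the dimmer probes. At the HSD signals of Mmp13 and Timp3, 95% of pairs of spots of a probe differed by less than 0.69 and 0.66 on the log2 scale, against 0.31 at that of Mmp14.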

Other observations

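Probes of the same gene disagreed for some of the proteases and marker genes, and these were picked after their values had been seen. Adamts5, an aggrecanase, had a brighter probe at 18.8 with NSD and 21.0 with HSD (log2 fold change 0.28), and its other probe, dim with NSD and at 34.8 with HSD, gave a lower bound of 3.03 on the log2 scale. Adamts2, which trims procollagen, had log2 fold changes of 0.45 and −0.98 by probes that were all under 15 intensity units. Kdr, the VEGF receptor of endothelial cells, had signals of 150.1 and 169 by its brighter probe (0.28) and of 124 and 20.4 by a probe printed in 10 spots per array (−2.49). Which transcript variants each probe reaches was not examined.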
